A study of Homo sapiens with 16 samples.

Results

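The genes described here make, move, sense and destroy prostaglandins: SLCO2A1, HPGD, PTGS1, PTGS2, PTGES, PTGER2 and PTGER4. These 7 genes were picked by name out of 20046 genes with a named array probe, with earlier results for the difference between the arms in view, so that difference is given for them as a description without a test. They are read by 9 probes, and the brightest probe of each gene was used unless another is named. After a filter on dim probes, 6 of the 7 remained among 13398 genes tested. PTGER2 did not pass it.

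The cells were H1, an established human embryonic stem cell line, kept on Matrigel in mTeSR, and all groups share that line and culture. The BMP4 arm received bone morphogenetic protein 4 at 100 ng/ml, and the untreated arm received none. Each arm has 8 Illumina bead arrays, 1 per day on days 0 to 7, which gives 1 array per arm at day 0, 3 per arm on days 1 to 3 (the early window) and 4 per arm on days 4 to 7 (the late window). The number of cultures is not in the labels, nor is the time at which BMP4 was added relative to day 0, and 1 line limits what the groups stand for.

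Prostaglandins are lipid signals made from arachidonic acid. The cyclooxygenases encoded by PTGS1 and PTGS2 form an unstable intermediate, terminal synthases such as that of PTGES turn it into prostaglandin E2, and receptors such as those of PTGER2 and PTGER4 answer outside the cell through Gs proteins and cyclic AMP. Signalling is ended in steps: the transporter encoded by SLCO2A1 carries prostaglandin into the cell, and the dehydrogenase encoded by HPGD oxidises it there. In the placenta and lung this pair is known for clearing prostaglandins.

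Intensities are the deposited values on a linear scale. The background of these arrays peaked at 117.3, and a value above 134.3, the floor, counts here as above background. On each array 42.6% of the probes lay above it, a share fixed by the quantile normalization. The arms already differed at day 0, where 658 genes were at least 2-fold higher and 369 at least 2-fold lower in the BMP4 arm. Summed background-corrected levels of 5 of 8 marker lists did not overlap between the arms on days 4 to 7: 8 pluripotent stem cell markers summed to 13082 to 17804 with BMP4 and 29397 to 33823 without, 5 amnion markers to 11371 to 12248 and 260.1 to 475.8, 7 mesoderm markers to 18408 to 21710 and 132.7 to 232.0, 5 endoderm markers to 1419 to 1651 and 165.1 to 257.3, and 9 trophoblast markers to 1713 to 2372 and 289.8 to 373.7. The other 3 lists overlapped: 7 fibroblast markers summed to 3351 to 20658 with BMP4 and 3416 to 4503 without, 4 endothelial markers to 511.7 to 2898 and 450.2 to 619.3, and 5 blood and macrophage markers to 212.7 to 282.1 and 273.7 to 354.6. In untreated cells VTCN1 of the amnion list, GATA2, GATA3 and CDX2 of the trophoblast list, and TBXT and FOXF1 of the mesoderm list were above the floor on none of days 1 to 7. The part of such a change in cell makeup in the results below was not tested, and fewer cells of a type cannot be told apart from less RNA per cell in these bulk samples.

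SLCO2A1, the prostaglandin uptake carrier, was below the floor at day 0 in both arms and well above it in the BMP4 arm from day 1. Its intensity in the BMP4 arm was 129.3 on day 0, 755.4 on day 1, 1329 on day 2, 2503.5 on day 3, 3097 on day 4, 3116 on day 5, 2995 on day 6 and 2278 on day 7. In the untreated arm it was 119.2, 150.5, 157.6, 145.0, 179.6, 168.5, 168.2 and 169.2 on the same days. From day 1 on the arms did not overlap, while both day 0 values lay below the floor.

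After background removal the same-day difference in SLCO2A1 was 13.3-fold on day 1, 21.9-fold on day 2 and 55.1-fold on day 3, and it lay between 32.1-fold and 45.0-fold on days 4 to 7. SLCO2A1 averaged 1529 ± 891 with BMP4 and 151.1 ± 6.31 without on days 1 to 3 (SD, n = 3 each), a log2 difference of 4.66 or 25.2-fold. On days 4 to 7 the means were 2871 ± 399 and 171.3 ± 5.50 (SD, n = 4 each), a log2 difference of 5.30 or 39.4-fold. Without background correction the log2 differences were 3.17 and 4.06. Endothelium is a cell type known for this transporter, and its 4 markers summed to 247.8 to 479.8 with BMP4 and 434.3 to 507.9 without on days 1 to 3. On those days PECAM1 and CDH5 were above the floor in neither arm, TEK was above it on at least 1 array of both, and VWF on at least 1 array with BMP4 and none without. On days 4 to 7 each of the 4 was above the floor on at least 1 BMP4 array, and PECAM1 and CDH5 on no untreated array. Their part in the SLCO2A1 difference was not tested.

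**Figure D1:**
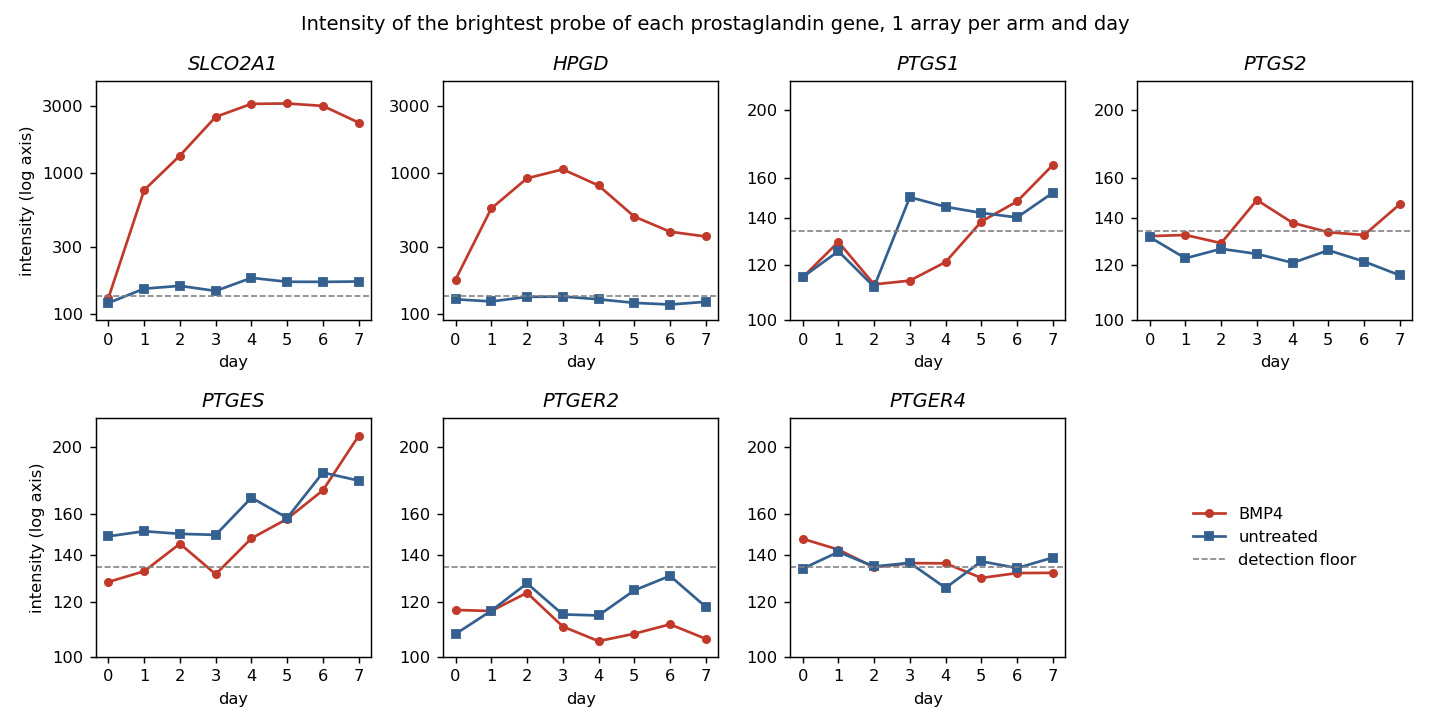
Deposited intensity (log axis) of each of the 7 genes by day, with 1 panel per gene, 1 point per array, the BMP4 arm and the untreated arm as separate lines, and the floor of 134.3 as a dashed line. In the BMP4 arm SLCO2A1 is above the floor from day 1, and HPGD on every day, day 0 included. The highest value among the other 5 genes is 207.3, for PTGES on day 7.

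HPGD, the enzyme that inactivates prostaglandins, was high in the BMP4 arm as well, but its course was that of a pulse. In the BMP4 arm its intensity was 174.4 on day 0, 559.0 on day 1, 915.9 on day 2, 1061 on day 3, 814.8 on day 4, 489.8 on day 5, 382.3 on day 6 and 353.5 on day 7. In untreated cells it was 126.5, 122.1, 131.6, 132.3, 126.5, 119.3, 116.1 and 121.4, below the floor on all 8 arrays. The HPGD values of the BMP4 arm were above every untreated value, day 0 included.

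Since untreated HPGD was not above the floor, each difference is a lower bound. It was at least 2.20-fold on day 0, at least 13.8-fold on day 1, at least 29.0-fold on day 3 and at least 7.61-fold on day 7. HPGD averaged 845.3 ± 258 with BMP4 and 128.7 ± 5.70 without on days 1 to 3 (SD, n = 3 each), at least 21.4-fold. On days 4 to 7 the means were 510.1 ± 211 and 120.8 ± 4.36 (SD, n = 4 each), at least 11.3-fold. The fitted log2 differences, 4.64 early and 3.98 late, use untreated values below the floor and so are neither exact nor bounds. Taking off the day 0 gap, which rests on such a value too, left 3.19 and 2.54.

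The promoter windows of HPGD are shown because this gene was above the floor on all 8 BMP4 arrays and on no untreated array. BMP also signals through SMAD factors, whose short motif can be looked for in these windows. RefSeq (GRCh38.p14) gives 2 windows of 300 bases, 250 before and 50 after a transcript start, both on the minus strand of chromosome 4 with window starts 405 bases apart. Capitals mark the SMAD box CAGAC, read on either strand. Neither window holds the GC-rich SMAD element GGCGCC.
HPGD, chr4:174522439-174522738, minus strand: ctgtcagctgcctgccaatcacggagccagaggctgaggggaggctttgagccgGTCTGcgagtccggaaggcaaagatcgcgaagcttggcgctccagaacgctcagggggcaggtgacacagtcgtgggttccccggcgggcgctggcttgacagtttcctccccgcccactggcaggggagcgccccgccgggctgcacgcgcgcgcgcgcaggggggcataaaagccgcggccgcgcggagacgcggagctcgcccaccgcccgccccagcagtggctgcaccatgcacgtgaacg
HPGD, chr4:174522844-174523143, minus strand: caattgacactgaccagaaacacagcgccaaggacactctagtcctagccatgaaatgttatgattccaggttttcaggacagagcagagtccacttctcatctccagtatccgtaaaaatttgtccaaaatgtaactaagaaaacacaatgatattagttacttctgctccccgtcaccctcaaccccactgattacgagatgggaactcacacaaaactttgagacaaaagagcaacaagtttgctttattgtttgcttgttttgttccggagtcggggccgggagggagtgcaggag

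The first HPGD window holds 1 SMAD box, as its reverse complement at position 55 from the window's first base, and the second holds none. Of 35116 RefSeq promoter windows of this length 45.3% hold CAGAC and 19.2% hold GGCGCC. The first window also holds 1 AP-2 motif, GCCNNNGGC, at position 26, present in 23.2% of windows, and the second holds 1 core of the cyclic AMP response element, TGACG, at position 174, present in 24.6%. GATAA and TATAAA were in neither HPGD window, against 22.7% and 11.5% of all windows. All motifs were searched on both strands, overlaps between different motifs were allowed, and a match describes letters only. Windows were found for 6 of the 7 genes, SLCO2A1 being the one without. CAGAC was also in windows of PTGS1, PTGS2, PTGER2 and PTGER4, so it is not particular to HPGD, and GGCGCC was in that of PTGER4.

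SLCO2A1 and HPGD thus separated in time within the BMP4 arm. As a share of its highest background-corrected day, SLCO2A1 stood at 21.3% on day 1, 79.6% on day 3, 99.4% on day 4, 100% on day 5 and 72.0% on day 7. HPGD stood at 46.8% on day 1, 100% on day 3, 73.9% on day 4, 39.5% on day 5 and 25.0% on day 7. HPGD was therefore nearer its own maximum than SLCO2A1 on days 1 to 3, and SLCO2A1 was nearer on days 4 to 7. Over the 16 arrays their log2 levels had a Pearson r of 0.908, with 0.736 in the 8 BMP4 arrays and -0.345 in the 8 untreated arrays, where HPGD was below the floor. The arrays share the arm and the day, so these values only describe the courses.

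**Figure D2:**
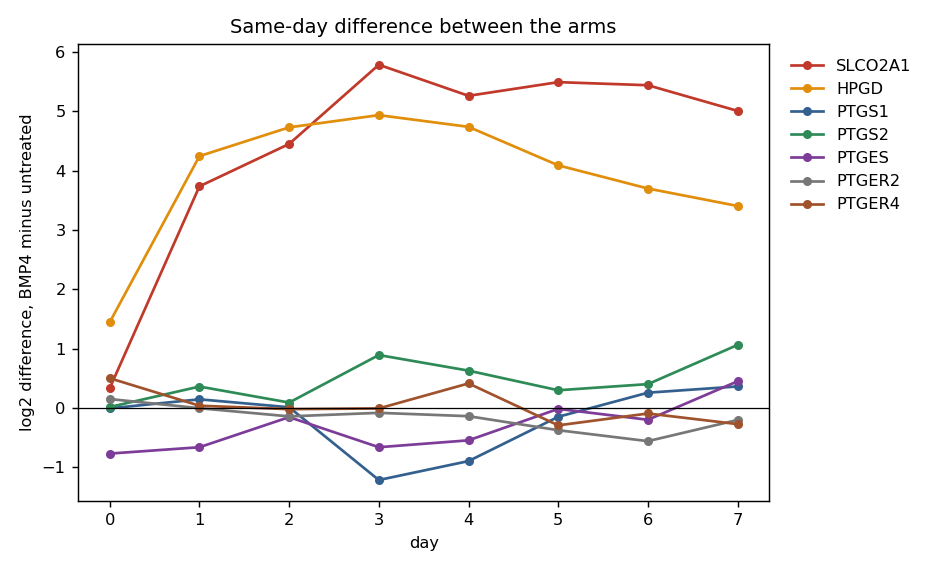
Difference between the arms on the same day (y axis, log2 BMP4 minus untreated) for the 7 genes by day (x axis), with 1 array per arm and day and no error bars. SLCO2A1 and HPGD lie above 3 on the log2 scale on days 1 to 7 (fitted values, not exact for HPGD, whose untreated values were below the floor), SLCO2A1 highest on day 3, and the other 5 genes lie between -1.21 (PTGS1, day 3) and 1.06 (PTGS2, day 7).

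The change within an arm, days 4 to 7 minus days 1 to 3, was tested with limma over all 13398 genes, and the change in the BMP4 arm rests on the same BMP4 arrays as the difference used to choose the genes. In the BMP4 arm 2 of the 6 tested genes rose, SLCO2A1 and PTGES, and 1 fell, HPGD, while 12.8% of all genes rose and 13.7% fell (26.5% in either direction). SLCO2A1 rose by 1.14 on the log2 scale (SE 0.28, limma adjusted p = 0.00668), and it passed under all 22 alternatives (adjusted p 3.79e-05 to 0.0366). Without BMP4 day 1 the rise was 0.68. HPGD fell by 0.92 (SE 0.30, limma adjusted p = 0.0293). That call was lost without BMP4 day 2 (adjusted p = 0.114), day 3 (0.118), day 5 (0.0543), day 6 (0.0924) or day 7 (0.0951) and with no filter (0.0538), within a range of 6.69e-04 to 0.118 over 22 alternatives.

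In untreated cells none of the 6 tested genes passed, SLCO2A1 and HPGD included, and 1 had an unadjusted limma p under 0.05. Only 0.0746% of all genes, 10 of 13398, passed there. HPGD and PTGS2 were below the floor on all 8 untreated arrays and met the filter through BMP4 arrays alone. Their untreated changes compare background values, so that they did not pass is no result. Untreated SLCO2A1 changed by 0.50 on the log2 scale (adjusted p = 0.738) and HPGD by -0.27 (adjusted p = 0.909). Whether the changes differed between the arms was not tested.

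**Figure D3:**
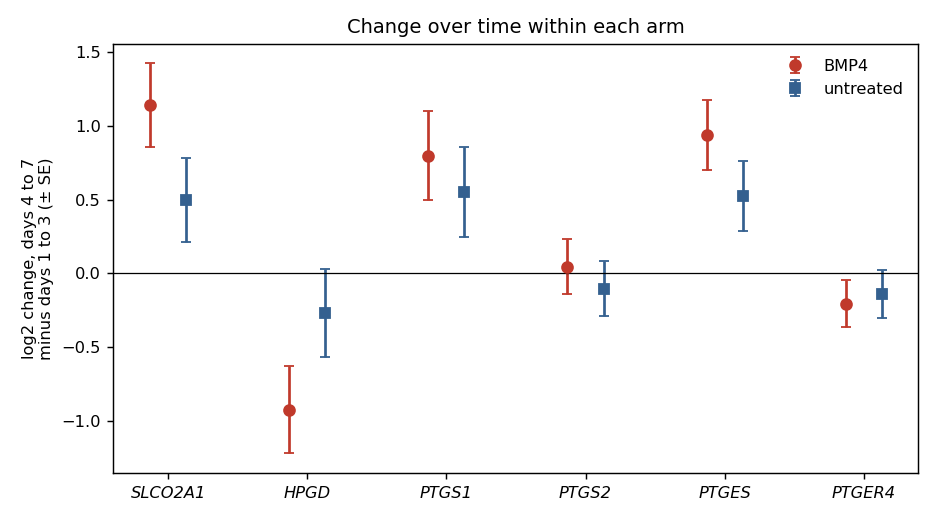
Log2 change (days 4 to 7 minus days 1 to 3) within the BMP4 arm (left marker of each pair) and the untreated arm (right marker) for the 6 tested genes, with SE bars from the limma fit. The BMP4 markers of SLCO2A1 (1.14), PTGS1 (0.80) and PTGES (0.94) lie above 0 and that of HPGD (-0.92) below it.

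Of the genes of synthesis, PTGS1, PTGS2 and PTGES were each followed in the same way. PTGES, the inducible terminal synthase of prostaglandin E2, had intensities in the BMP4 arm of 128.0, 132.6, 145.2, 131.3, 147.8, 157.6, 173.2 and 207.3 on days 0 to 7. In the untreated arm they were 148.8, 151.3, 150, 149.5, 169.0, 158.1, 183.6 and 178.8. Both arms had their 2 highest PTGES values on days 6 and 7.

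PTGES was lower in the BMP4 arm on days 1 to 3, by 0.49 on the log2 scale or 1.40-fold with no overlap of the arrays, and its late log2 difference was -0.07. It was already lower at day 0 (log2 difference -0.77). With that subtracted both signs turned, to 0.28 and 0.69, and the late sign also turned with housekeeping centring (0.13). Within the BMP4 arm PTGES rose by 0.94 between the windows (SE 0.24, limma adjusted p = 0.00723) and passed under all 22 alternatives (adjusted p 9.27e-04 to 0.0302), with a change of 0.32 where no background was corrected. In untreated cells the change was 0.52 (adjusted p = 0.622), with the late values (158.1 to 183.6) all above the early ones (149.5 to 151.3).

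PTGS1, the constitutive cyclooxygenase, had intensities with BMP4 of 115.1, 129.4, 112.5, 113.9, 121.1, 138.4, 147.9 and 166.8 on days 0 to 7. Without BMP4 it had 115.2, 125.5, 111.6, 150, 145.3, 142.4, 140.3 and 152.2. The untreated arm crossed the floor from day 3 and the BMP4 arm from day 5, and the arms overlapped in both windows. The log2 differences between the arms were -0.35 early and -0.10 late, and the early one was 0.01 without untreated day 3.

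Within the BMP4 arm PTGS1 changed by 0.80 (SE 0.30, limma adjusted p = 0.0606), just short of the threshold. It passed with the mean of both probes (0.0352), with housekeeping centring (0.0493), with days 1 to 2 and 5 to 7 as windows (0.00712), without untreated day 3 (0.0371) and without BMP4 day 4 (0.00629), within a range of 0.00629 to 0.188 over 22 alternatives. The untreated change was 0.55 (adjusted p = 0.723). A second PTGS1 probe, annotated to another transcript, read 104.7 to 135.0 with BMP4 and 121.1 to 136.6 without.

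PTGS2, the inducible cyclooxygenase, lay on both sides of the floor in the BMP4 arm and below it without BMP4. Its intensities in the BMP4 arm were 131.9, 132.4, 128.9, 148.6, 137.8, 133.6, 132.4 and 146.6 on days 0 to 7. In the untreated arm they were 131.5, 122.6, 126.5, 124.4, 120.8, 125.9, 121.3 and 115.9. BMP4 arrays for days 3, 4 and 7 were above it.

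The arms did not overlap for PTGS2 in either window, with log2 differences of 0.45 early and 0.60 late, which as bounds come to at least 1.05-fold and at least 1.09-fold. A second PTGS2 probe was never above the floor, at 112.3 to 125.6 with BMP4 and 108.9 to 124.8 without, and gave log2 differences of -0.12 early and -0.0016 late. The change within the BMP4 arm was 0.05 (limma adjusted p = 0.887) and that in untreated cells -0.10 (adjusted p = 0.953), the latter between values below the floor.

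The receptors stayed at or near background. PTGER2, one Gs-coupled receptor of prostaglandin E2, read 105.3 to 123.5 in the BMP4 arm and 107.8 to 130.6 in the untreated arm, below the floor on all 16 arrays, so no fold is given. PTGER4, the other Gs-coupled receptor, had intensities with BMP4 of 147.6, 142.4, 134.3, 136.2, 136.1, 129.7, 131.8 and 131.9 on days 0 to 7. Without BMP4 it had 133.7, 141.3, 134.7, 136.3, 125.5, 137.0, 134.0 and 138.7.

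PTGER4 was above the floor on 4 of 8 BMP4 arrays and 5 of 8 untreated arrays, and the arms overlapped in both windows. Its log2 differences were 0.01 early and -0.06 late. The change over time was -0.20 in the BMP4 arm (limma adjusted p = 0.386) and -0.14 in the untreated arm (adjusted p = 0.916). The day 0 difference in PTGER4 was 0.50 in favour of the BMP4 arm, and with it subtracted the values were -0.50 and -0.56.

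Counted over the genes that passed the filter, the arrays of the arms did not overlap and were higher with BMP4 for 3 of 6 genes in each window (SLCO2A1, HPGD and PTGS2, the last on its main probe alone), where 23.7% of all genes were early and 24.0% late (43.0% and 47.1% in either direction). PTGES was the 1 gene lower without overlap early, where 19.2% of all genes were, and none was late, where 23.1% were. The median log2 difference of the 6 was 0.23 early and 0.27 late, against 0.04 and 0.00 over all tested genes. These counts follow from the choice of the genes and are given without a test. They also follow from the filter, which HPGD and PTGS2 passed only through the BMP4 arm, where they are higher.

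Other genes came from 7 lists on prostanoid and arachidonic acid metabolism, transport, receptors and the cyclic AMP response, which hold 72 genes, of which 68 had a probe and 43 passed the filter. In the early window 11 of the 43 were higher with BMP4 and 7 lower (25.6% and 16.3%), where 16.1% and 13.3% of all genes were (29.4% called in all). In the late window 15 were higher and 14 lower (34.9% and 32.6%), where 27.3% and 26.6% of all genes were (53.9% called in all). With the day 0 difference subtracted none of the 43 passed early, where 315 of all 13398 tested genes did. Late, 8 of the 43 were then higher and 5 lower, where 1195 and 1416 of all 13398 were. Of the late calls named below, those of AKR1C3, PTGES3, AKR1C2, PTGR3, ANXA1, PLA2G4C, PLA2G2A and PDE4D passed after that subtraction, and the others did not. In untreated cells none of the 43 changed between the windows by limma, 6 having an unadjusted p under 0.05. In the BMP4 arm 8 rose and 10 fell (18.6% and 23.3%), where 12.8% and 13.7% of all genes did.

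Among prostanoid synthases and reductases 10 of 12 genes were tested, with 3 higher and 2 lower early and 4 of each late (median log2 difference 0.19 early and -0.18 late). Over all genes 16.1% were higher and 13.3% lower early, and 27.3% and 26.6% late. The probes of PTGES2, in this list, disagreed. Its main probe gave log2 differences of 0.67 early and 0.62 late, and its second probe, at 601.0 to 972.9, gave -0.11 and -0.27. AKR1C3, which makes prostaglandin F2 alpha and related products, was 340.4, 728.8, 970.5 and 953.5 with BMP4 on days 4 to 7, against 208.9, 185.6, 187.7 and 192.7 without. It was 6.29-fold higher with BMP4 late (log2 2.65, SE 0.31, limma adjusted p = 1.74e-06). Its early log2 difference was 0.62 (limma adjusted p = 0.207). Its probe may also read the near-identical AKR1C copies. PTGES3, the cytosolic prostaglandin E synthase that also serves as the co-chaperone p23, went the other way. It was 281.8 to 339.6 with BMP4 and 662.9 to 1141 without on days 4 to 7, 3.75-fold lower (limma adjusted p = 3.13e-08), and 3.14-fold lower early (adjusted p = 5.81e-06).

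PTGIS, the prostacyclin synthase, was 2.23-fold lower with BMP4 late (limma adjusted p = 2.43e-05), at 170.4 to 205.2 against 273.1 to 309.3 without. PRXL2B, another prostamide and prostaglandin F synthase, was 2.10-fold lower with BMP4 late (limma adjusted p = 3.00e-04). The carbonyl reductase CBR1, named after its values were seen, was higher with BMP4 on days 1 to 3 (485.3, 443.6 and 367.8 against 307.8, 285.9 and 261.4) and lower on days 4 to 7 (262.5, 197.7, 158.8 and 156.2 against 283.3, 251.4, 231.1 and 233.1). Its log2 differences were 0.84 (limma adjusted p = 0.0453, which passed in 10 of 24 alternatives, range 0.00587 to 0.283) and -0.81 (adjusted p = 0.0144). The late call was lost without BMP4 day 6 (-0.63) or day 7 (-0.61).

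In the breakdown list 6 of 8 genes were tested, with 3 higher and 1 lower in each window (median log2 difference 0.65 early and 0.60 late). The shares over all genes were 16.1% higher and 13.3% lower early, and 27.3% and 26.6% late. PTGR1, PTGR2 and PTGR3 encode reductases that act on the product of HPGD. PTGR3 was 174.8, 283.1, 324.6 and 366.8 with BMP4 on days 4 to 7, against 131.2, 123.3, 133.7 and 138.3 without, at least 4.93-fold (limma adjusted p = 2.57e-06). It was above the floor on 7 BMP4 and 2 untreated arrays, so it needed BMP4 arrays to pass the filter. PTGR1, which also oxidises leukotriene B4, was 2.11-fold higher with BMP4 late (limma adjusted p = 4.44e-05). PTGR2 was named after its values were seen, as the 1 lower gene. It was 1.69-fold lower with BMP4 early (limma adjusted p = 0.00474) and 1.53-fold lower late (limma adjusted p = 0.00345). At day 0 its log2 difference was already -1.02. The dimmer PTGR2 probe gave log2 differences of -0.01 early and 0.15 late. PTGR2 turned to 0.26 and 0.41 once the gap at day 0 was taken off, and neither value passed. AKR1C2 was 7.19-fold higher with BMP4 late (limma adjusted p = 2.33e-06). Its other 5 probes were at background, however, and the mean of all its probes gave a log2 difference of 0.41. CBR3, a carbonyl reductase, was 392.5, 538.8 and 352.0 with BMP4 on days 1 to 3 and 178.1, 207.1 and 168.4 without, 3.89-fold higher (adjusted p = 9.62e-04). Its late log2 difference was 0.13 (adjusted p = 0.763). Between the windows of the BMP4 arm CBR3 fell by 2.52 (adjusted p = 9.65e-05), while PTGR1 rose by 0.75 (adjusted p = 0.00615) and PTGR3 by 1.24 (adjusted p = 0.00821).

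In the transport list 4 of 5 genes were tested, with 1 higher and 1 lower early and 1 higher and 2 lower late. Over all genes 16.1% were higher and 13.3% lower early, and 27.3% and 26.6% late. ABCC4, which exports prostaglandins and so works against SLCO2A1, was 283.4 to 330.9 with BMP4 and 171.4 to 205.9 without on days 4 to 7. It was 1.78-fold higher with BMP4 early (limma adjusted p = 0.0132) and 2.37-fold higher late (limma adjusted p = 6.17e-05). The early log2 difference of 0.83 no longer passed without BMP4 day 3 (0.62) or untreated day 3 (0.58), with days 1 to 2 as the window (0.37), or with the mean of its probes (0.35). SLCO3A1, a family member of SLCO2A1 that also carries prostaglandins, was 2.25-fold lower with BMP4 late (limma adjusted p = 9.81e-05).

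In the list of arachidonic acid supply and return 12 of 16 genes were tested, with 2 higher and 3 lower early and 3 higher and 5 lower late. The shares over all genes were 16.1% higher and 13.3% lower early, and 27.3% and 26.6% late. The phospholipase PLA2G4C was 8.88-fold lower with BMP4 late (log2 -3.15, limma adjusted p = 4.57e-09), at 136.4 to 154.6 against 448.4 to 504.3 without. The secreted phospholipase PLA2G2A was 266.5 to 317.4 with BMP4 and 114.1 to 136.6 without, at least 5.51-fold higher (adjusted p = 1.85e-06). Above the floor on 6 BMP4 arrays and 1 untreated array, PLA2G2A also needed BMP4 arrays to pass the filter. ANXA1 encodes annexin A1, known as an inhibitor of phospholipase A2. It was 3.83-fold higher with BMP4 early (limma adjusted p = 3.88e-04) and 9.97-fold higher late (limma adjusted p = 7.01e-08).

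The 7 other prostanoid receptor genes (PTGER1, PTGER3, PTGFR, PTGDR, PTGDR2, PTGIR and TBXA2R) failed the filter, like PTGER2. They read 97.0 to 146.2, and 3 of them (PTGER3, PTGFR and TBXA2R) were above the floor on at least 1 of 16 arrays. Among 5 tested genes of a cyclic AMP response list (of 11), 2 were higher early and 4 late, and none was lower. Of all genes 16.1% were higher early and 27.3% late, and 13.3% and 26.6% were lower. NR4A1, NR4A2, NR4A3, CREM and PER1 of that list failed the filter. PDE4B passed in neither window (log2 differences -0.55 early and -0.21 late). FOSB and SIK1, both higher late, lay near the floor, at no more than 171.2 and 178.9 on any array. PDE4D, a cyclic AMP phosphodiesterase, was at least 3.24-fold higher with BMP4 late (limma adjusted p = 1.77e-08), at 201.7 to 223.6 against 111.4 to 119.8 without. It was above the floor on 7 BMP4 arrays and 0 untreated arrays. PDE4D thus entered the tested genes, and the counts of this list, only through the arm where it is high. The phosphatase gene DUSP1 was 2.67-fold higher with BMP4 late (limma adjusted p = 5.76e-06). Many signals other than prostaglandins act on such genes. In the lipoxygenase and leukotriene list 7 of 14 genes were tested, with 1 higher and none lower early and 1 higher and 2 lower late. PTGR1, in that list too, is the gene that was higher.

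**Figure D4:**
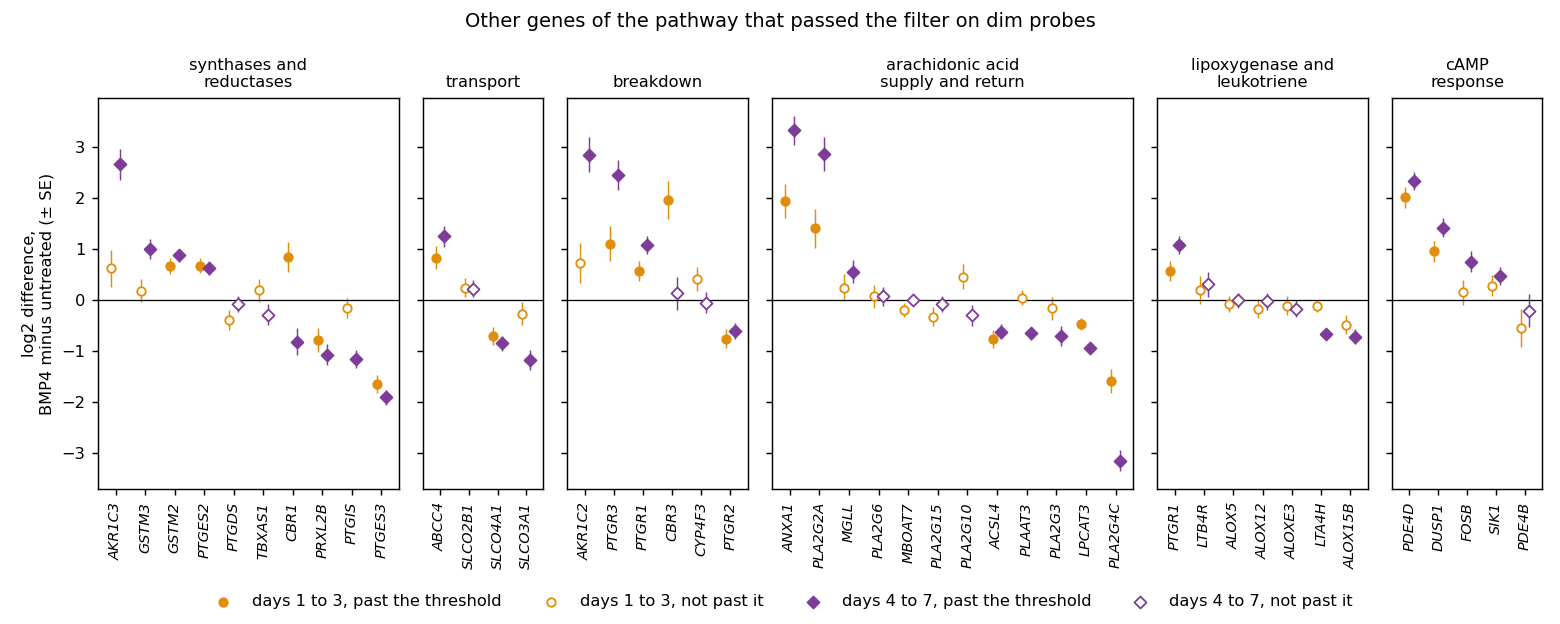
Log2 difference, BMP4 minus untreated, in the early and late windows for the genes of the pathway lists that passed the filter, with SE bars from the limma fit. Filled markers are past the threshold and open markers are not. ANXA1 (3.32 late), AKR1C2 (2.85 late) and PLA2G2A (2.85 late) lie farthest to the higher side and PLA2G4C (-3.15 late) farthest to the lower side.

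By Pearson correlation of log2 levels over the 16 arrays, the genes most like SLCO2A1 were MSX1 (r = 0.99), MSX2 (0.989), COL9A2 (0.986), BCAR3 (0.985) and EFNA1 (0.983). MSX1 and MSX2 are homeobox genes known as BMP targets. The genes most like HPGD were WNT3 (0.991), the ligand gene of the primitive streak, GSTO1 (0.989), NTS (0.987), IL6 (0.982) and CD1D (0.979). Within the 8 BMP4 arrays the 5 neighbours of SLCO2A1 had r of 0.982 to 0.992 and those of HPGD 0.953 to 0.982. Highest BMP4 days were 4 to 6 for the neighbours of SLCO2A1 and 2 to 3 for those of HPGD. The arrays share the arm and the day, so these values describe shape alone.

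**Figure D5:**
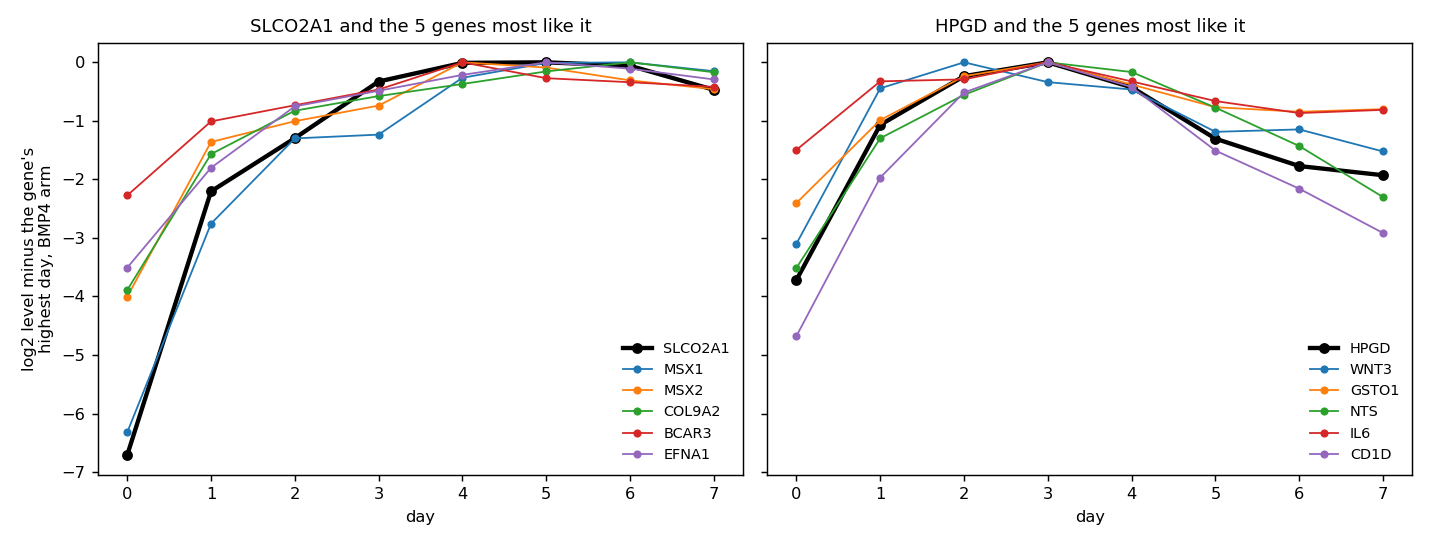
Log2 level in the BMP4 arm minus that of the gene's own highest day (y axis), by day, 1 array per day. The panels show SLCO2A1 and its 5 nearest genes, and HPGD and its 5 nearest genes. The first set stays high to day 7, and the second set has its highest days at 2 to 3.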

How the data were processed

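The authors' deposited table of processed intensities, on a linear scale, was used. From the numbers, the authors' values look quantile normalized (array median 128.3 on each array). The sources used here name no scanner software or normalization tool. Per the labels' protocols, RNA was Trizol extracted, DNase treated and amplified to biotinylated cRNA. A table of non-normalized signals has 32 columns whose numbers match no label, and it was not used, so detection p-values were not used either.

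Background was estimated by mirroring values below its peak, the floor being the 99th percentile (134.3), and corrected by normexp with an offset of 16, then log2. Of 47323 probes 30113 have 1 gene symbol, 8 several and 17202 none, and 30074 matched the reference table. Genes were kept if above the floor on at least 3 arrays, and the brightest probe stood for a gene. All 16 arrays entered 1 limma 3.58.1 fit (R 4.3.3) with a mean per arm and window and an intensity trend. Tests are two-sided, adjusted by Benjamini-Hochberg over all tested genes, with a threshold of 0.05. No day is repeated within an arm, so neighbouring days stand in for replicates, and a p-value reflects how far those days differ, trends within a window and technical spread included. "At least" folds set the brighter mean against the higher of the floor and the dim probe's own value. The fit was tested on simulated arrays with independent noise and no trend over days, so that test does not cover trends within a window.

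The genes, lists and rules were chosen with earlier results of these data known. Named from the lists were genes past the threshold with at least a 2-fold change, at most 4 per list by late change, and the 5 genes most correlated with each of the 6 tested genes. Alternatives covered background, offset, filter, probe choice, centring, day as a block, day 0 subtraction, windows, trend and each array left out.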

Additional observations from a re-analysis of the deposited data

Results flagged for a closer look

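In 5 of 48 sets of 4 arrays examined, 1 array stood apart from the other 3 by a gap test (gap over range). Chance gives that in about 1 of 20 sets of interchangeable arrays. These arrays are successive days 4 to 7 of 1 arm, so that rate need not hold for them. Each array that stood apart was from day 4 or day 7, the edges of the window. SLCO2A1 in the BMP4 arm had its lowest late log2 level on day 7, 11.09 against 11.50 to 11.56 on the other days (ratio 0.874). Untreated SLCO2A1 was highest on day 4, 6.29 against 6.06 to 6.08 (ratio 0.904). Untreated PTGIS was lowest on day 4, 7.42 against 7.67 to 7.70 (ratio 0.9). PTGR1 with BMP4 was lowest on day 4, 9.73 against 10.12 to 10.17 (ratio 0.904). CBR3 with BMP4 was highest on day 4, 7.11 against 5.23 to 5.42 (ratio 0.9). For CBR1 every same-day difference was positive on days 1 to 3 and negative on days 4 to 7, the late log2 difference minus the early one being -1.66, and this difference between the windows was not tested.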

How the results depend on the processing

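The day 0 arrays bear most on the counts: with their difference subtracted 315 genes passed early (3935 otherwise) and 2611 late (7224), of 13 named early calls none and of 16 late calls 8 were left, and PTGR2 turned to 0.26 early and 0.41 late. The cause was not tested. In untreated cells 10 genes passed, against 1 with no background correction, 4 with an offset of 50, 121 with days 1 to 2 and 5 to 7 as windows, and 1 to 28 with an array left out. BMP4-arm changes numbered 3547, and 2287 (without day 2) to 4440 (without day 4) with an array left out. Early counts were then 2879 to 4385 and late counts 6585 to 7392. Centring on housekeeping genes moved the median by 0.09 early and 0.21 late, and the share of calls that were higher was 68.3% early (54.8% otherwise), 68.8% late (50.7%) and 60.0% for BMP4-arm changes (48.2%). With an offset of 50, SLCO2A1 had fitted log2 differences of 3.94 and 4.74 and HPGD 3.57 and 2.83, and with no background correction HPGD had 2.67 and 2.00. With day as a replicate block 3999 genes passed early and 7186 late. Same-day deviations of the arms from their window means correlated between -0.0365 and 0.284. Such deviations also hold change over the days of a window, so they cannot show whether same-day arrays share an effect of the day. Signal near background limits PTGS1, PTGS2, PTGES, PTGER2 and PTGER4, and 1 array per arm and day limits every value.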

Other observations

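The 4 dimmer genes that passed the filter had neighbours of lower likeness than SLCO2A1 and HPGD did. Over the 16 arrays OPTN (r = 0.911), OLFML2A (0.907) and EPHX2 (0.895), the last encoding soluble epoxide hydrolase of lipid signalling, came nearest to PTGS1, with CDC42EP5 (0.893) and CNTNAP1 (0.887). PLTP, a phospholipid transfer protein gene, came nearest to PTGES (0.898), before DNASE1L1 (0.886), SH3BGRL3 (0.884), ATP2B1 (0.883) and H2BC21 (0.879). PTGS1 and PTGES had r of 0.784 with each other over 16 arrays, 0.890 within the 8 BMP4 arrays and 0.607 within the 8 untreated arrays. For PTGS2 the nearest were SNX2 (0.893), SULF1 (0.886), S100Z (0.881), TRAPPC3 (0.879) and PHETA1 (0.866), and for PTGER4 STAMBP (0.809), C7orf57 (0.801), IPO11 (0.786), PCCB (0.786) and MRPL45 (0.780). Values near the floor make these likenesses uncertain.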
